A study of Sus scrofa domesticus with 4 samples.

Results

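The swine leukocyte antigen (SLA) class I genes were represented by 15 of the 43603 non-control probes of a porcine expression array. They were all the probes whose deposited transcript name belongs to SLA-1, SLA-2, SLA-3, SLA-6, SLA-7, SLA-8 or B2M in the RefSeq gene table of assembly Sscrofa11.1. SLA-3 had 7 probes, SLA-8 had 4, B2M had 2, and SLA-6 and SLA-7 had 1 each. For SLA-1 and SLA-2, 0 probes were matched through that table, so 5 of the 7 genes were measured under their own names. RNA was taken from myometrium (uterine smooth muscle) of 4 gilts (Large White x Polish Landrace, 7 to 8 months old, 120 to 130 kg) on days 15 to 16 of gestation. Explants of about 100 mg from the uterine horns were kept for 2 h. For the next 24 h they were cultured in the presence or absence of orexin A (OXA), a neuropeptide that acts through the receptors HCRTR1 and HCRTR2. Treated and non-treated explants had the same medium with 5% stripped calf serum, and cultures were made in duplicate. The sample labels give OXA at 10 nM and the series' design text gives 10 µM, and this was not settled here. Each array carried OXA-treated RNA in 1 dye and non-treated RNA in the other. By the sample labels, Cy5 carried the OXA sample of arrays 1 and 3, and Cy3 that of arrays 2 and 4.

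MHC class I molecules sit on the surface of nearly all nucleated cells and show peptides from the cytosol to CD8+ T cells and natural killer cells. Each consists of a polymorphic heavy chain and the invariant light chain beta-2-microglobulin, encoded by B2M. In the pig, SLA-1, SLA-2 and SLA-3 encode the classical heavy chains, while SLA-6, SLA-7 and SLA-8 are non-classical genes with less variation. The proteasome cuts the peptides, the transporter TAP carries them into the endoplasmic reticulum, and chaperones load them. Interferons raise transcription of the whole pathway in many cell types, and pig conceptuses secrete interferons around implantation. In the gene table, SLA-3 lies on chromosome 7 beside SLA-1 and SLA-2, and SLA-8, SLA-7 and SLA-6 follow each other further along it. B2M lies on chromosome 1, where the table has 2 entries of that name, and both probes carry the transcript of 1 of them. Heavy chain genes are close relatives of each other, and which transcripts each probe bound was not tested.

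A probe was tested where the scanner found its spot well above background in 1 of the conditions on 3 or more arrays, which 19500 probes (44.7%) passed. All 7 smooth muscle genes of the marker list that the array names, among them ACTA2 and DES, were in this set. A single channel had 39.9% to 61.1% of probes at that level. Log2 ratios of OXA over non-treated correlated across the tested probes, which are not independent replicates, at r = 0.62 between arrays 1 and 4, at -0.59 between arrays 1 and 2, and at -0.38 between arrays 2 and 4, which share a dye orientation. Array 2 therefore ran against arrays 1 and 4 over the whole array, and its orientation was kept as the labels give it. limma called 0 of 19500 probes, with 234 at an unadjusted p under 0.05. Leaving out arrays 1 to 4 in turn, it called 1, 1093, 5 and 6 probes, 0 of them of class I genes. The labels do not tie an array to a gilt, so p-values measure the spread between these 4 arrays.

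Of the 15 class I probes, 13 passed that level in each of the 8 channels: all probes of B2M, SLA-3 and SLA-6 and 3 of the 4 of SLA-8. None of the 13 therefore entered the test through 1 condition alone. All 13 had a positive mean log2 ratio, from 0.04 to 0.39, against 47.2% of all tested probes and 62.2% of the 1985 named genes tested. They are probes of B2M, SLA-3, SLA-6 and SLA-8 only, with 7 of SLA-3. All share the same arrays and are not independent cases. By gene, in that order, the means were 0.37, 0.18, 0.20 and 0.23. No probe of the 13 was positive on all 4 arrays, where 3.96% of all tested probes were, or negative on all 4, where 3.76% were. Array 4 carried much of this sign. All 13 were positive there (50.5% of all tested probes), 10 on array 1 (50.2%), 7 on array 2 (47.2%) and 5 on array 3 (50.2%). Without array 4, the estimates of 8 of the 13 turned negative, down to -0.19. That fit keeps the dye term, so array 2, then alone with OXA in Cy3, weighs as much as arrays 1 and 3 together. The count of 8 therefore also depends on the weight of array 2. In limma, 0 of the 13 passed at an adjusted p of 0.05, as for 0% of all tested probes, and 0 of the 13 had an unadjusted p under 0.05, against 1.2%. The adjusted p was 0.998 for each of them, and the lowest unadjusted p was 0.205. The SD over the 4 arrays was larger than the mean for 12 of the 13. The signs of 4 arrays allow a two-sided exact p no lower than 0.125.

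**Figure D1:**
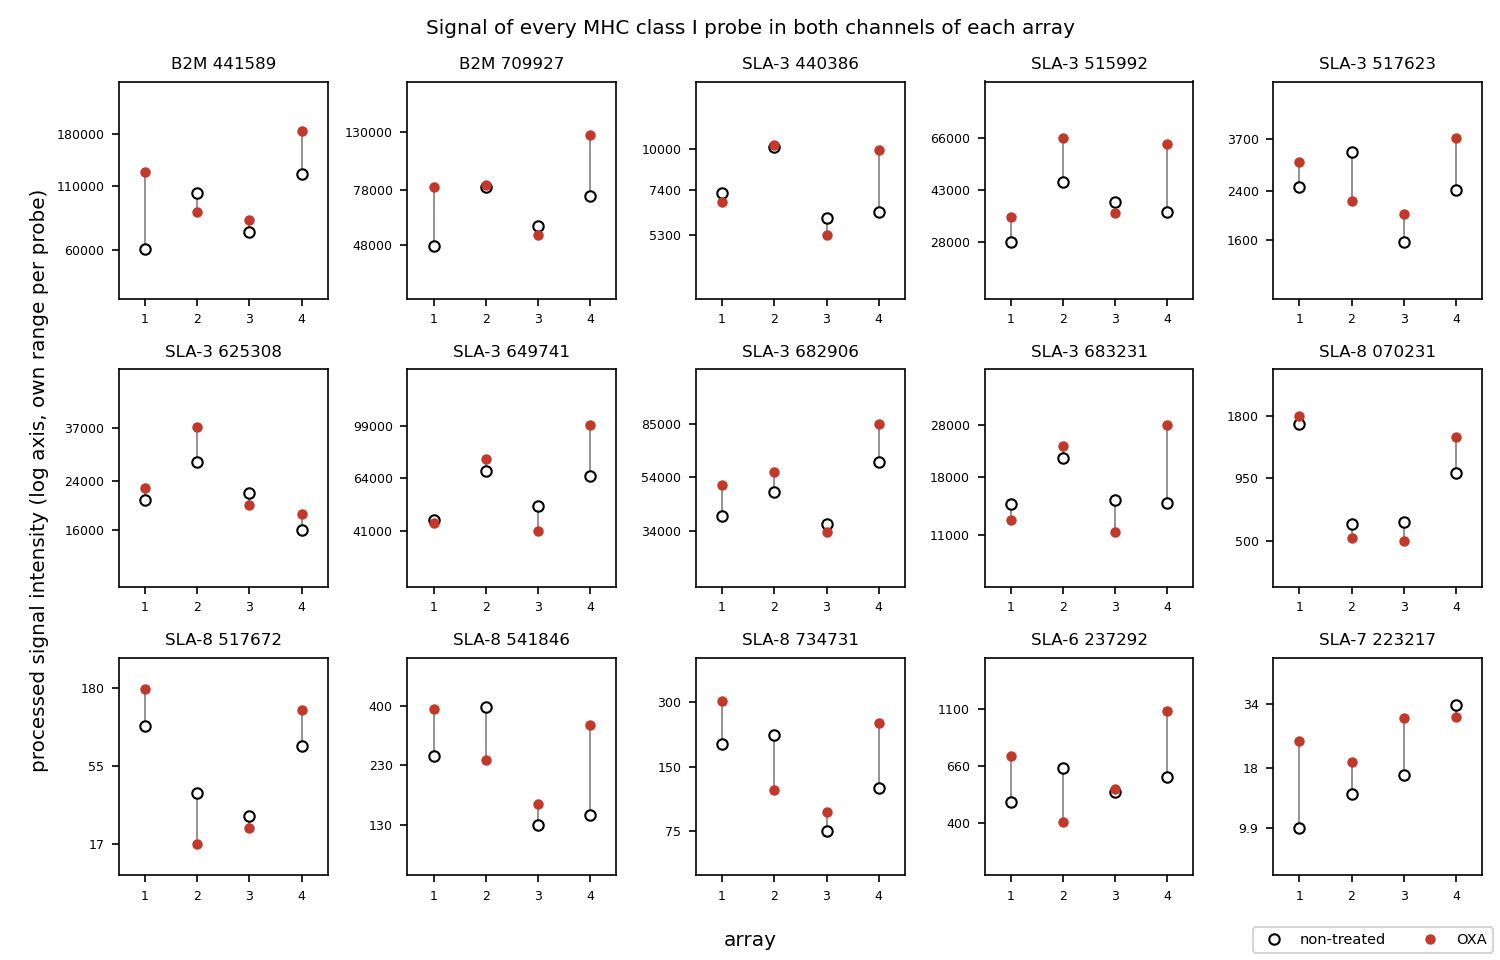
Processed signal intensity (log axis, arbitrary units, own range in each panel) of the 15 class I probes by array, with open points for non-treated and filled points for OXA-treated explants of the same array. The OXA point lies above the non-treated point on array 4 for every probe but that of SLA-7, and the order varies between probes on arrays 1, 2 and 3.

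B2M, the light chain shared by all class I molecules, gave higher signal with OXA on arrays 1 and 4, while arrays 2 and 3 gave log2 ratios between -0.27 and 0.16. Probe A_72_P441589 had processed signals of 125458, 85476, 79077 and 184084 with OXA and of 60138, 102753, 70592 and 122125 without, on arrays 1 to 4. Its log2 ratios were 1.06, -0.27, 0.16 and 0.59, with a mean of 0.39 ± 0.57 (SD, n = 4), or 1.31-fold. Array 1 was the highest and array 2 the only negative one. Probe A_72_P709927 had signals of 79747, 81761, 52632 and 126607 with OXA and of 47824, 80211, 56910 and 74221 without. Its log2 ratios were 0.74, 0.03, -0.11 and 0.77, with a mean of 0.36 ± 0.46 (SD, n = 4). The OXA and non-treated signals of both probes overlapped. The 95% interval of the limma estimate ran from 0.777-fold to 2.20-fold for A_72_P441589 and from 0.772-fold to 2.12-fold for A_72_P709927, so neither a 2-fold rise nor no change lay outside it. The 2 estimates were 0.16 and 0.14 without array 1, 0.60 and 0.54 without array 2, 0.61 and 0.57 without array 3, and 0.17 and 0.17 without array 4. Loess normalization turned 3 of these 8 signs: to -0.05 on array 4 for A_72_P441589, and to -0.10 on array 2 and 0.06 on array 3 for A_72_P709927.

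SLA-3, the 1 classical heavy chain gene with probes here, averaged 0.18 ± 0.31 (SD, n = 4) over its 7 probes, or 1.13-fold. The mean over probes was 0.11, 0.13, -0.13 and 0.61 on arrays 1 to 4, so that array 4 was the highest and array 3 the only negative one. The highest mean belonged to A_72_P515992, which had signals of 34389, 65962, 35669 and 63069 with OXA and of 28084, 46152, 38921 and 36040 without. Its log2 ratios were 0.29, 0.52, -0.13 and 0.81, with a mean of 0.37 ± 0.39, and its 95% interval ran from 0.831-fold to 2.02-fold. The signals overlapped, since the OXA value of array 1 lay below all non-treated values but that of the same array. The smallest SD relative to the mean was that of A_72_P682906, with signals of 50536, 56475, 33847 and 84939 with OXA and of 38947, 47681, 36091 and 61733 without. Its log2 ratios of 0.38, 0.24, -0.09 and 0.46 gave a mean of 0.25 ± 0.24 (SD, n = 4), the 1 case among the 13 where the mean was above the SD. Its estimate was 0.13 without array 1 and 0.36 without array 3.

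The other SLA-3 probes had means of 0.10 to 0.17. A_72_P625308 had log2 ratios of 0.15, 0.42, -0.15 and 0.18, the 1 probe of the gene with its highest value on array 2, and its estimate was 0.077 without array 1 and 0.092 without array 2. A_72_P649741 had -0.04, 0.15, -0.30 and 0.61, and A_72_P440386 had -0.10, 0.02, -0.18 and 0.65. A_72_P683231 had the widest swing of the gene, with -0.19, 0.15, -0.39 and 0.96. On array 3 these 4 probes and the 2 above were all negative, from -0.39 to -0.09, and on array 2 all 6 were positive, from 0.02 to 0.52. Signs of +, +, - and + on arrays 1 to 4 were found for 4 of the 13 class I probes, which were A_72_P515992, A_72_P625308 and A_72_P682906 of SLA-3 and A_72_P709927 of B2M, and for 4.16% of all tested probes. After loess normalization 4 of the 13 had them, against 4.87% of 19437 tested probes. A_72_P709927 of B2M left this set and A_72_P649741 entered it, so all 4 were then SLA-3 probes. This set of signs was not fixed beforehand, so the shares are a description and no test.

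The seventh SLA-3 probe, A_72_P517623, did not follow the others. Its signals were 3058, 2208, 1972 and 3720 with OXA and 2484, 3314, 1563 and 2407 without, which gave log2 ratios of 0.30, -0.59, 0.34 and 0.63 and a mean of 0.17 ± 0.53 (SD, n = 4). It was negative on array 2 and positive on array 3, the opposite of the other 6 on both. Its root mean square difference over the 4 arrays from the other SLA-3 probes was 0.45 to 0.60, where those 6 differed among themselves by 0.09 to 0.46. From the SLA-8 probes it differed by 0.29 to 0.37 and from the SLA-6 probe by 0.25. The SLA-8 probes were split as well. Among them, A_72_P070231 differed from A_72_P541846 by 0.58 and from A_72_P734731 by 0.56, but from SLA-3 A_72_P440386 by 0.18. For scale, repeated spots of a probe on the same array had a median SD of 0.12 over the 17 tested probes with 5 spots. After loess normalization A_72_P517623 still had -0.49 on array 2 and 0.41 on array 3. Whether it binds the same transcripts as the others was not tested.

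**Figure D2:**
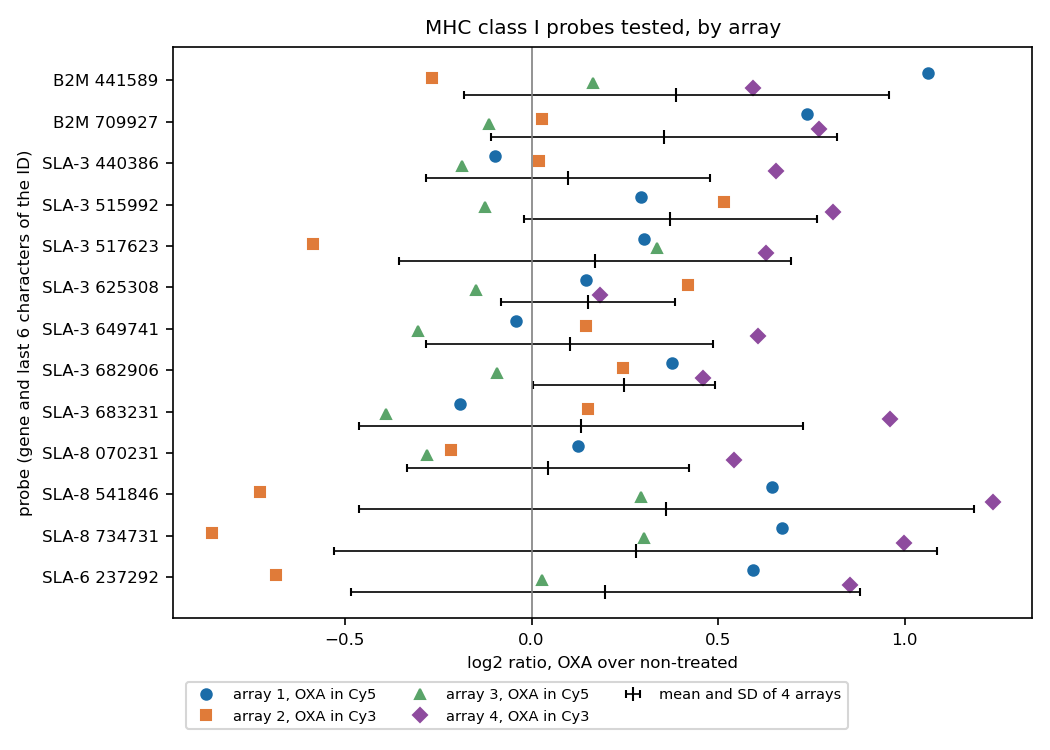
Log2 ratio of OXA over non-treated for the 13 class I probes tested, with 1 symbol per array and the mean and SD of the 4 arrays below each row. On array 2 (squares), B2M A_72_P441589, 1 SLA-3 probe, the SLA-8 probes and the SLA-6 probe lie below 0, while the other 6 SLA-3 probes lie above it.

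SLA-8 and SLA-6, the non-classical genes that were tested, had positive log2 ratios on arrays 1 and 4 and negative ones on array 2. For SLA-8, A_72_P541846 had signals of 390, 240.1, 158 and 335 with OXA and of 249, 398, 129 and 142 without. Its log2 ratios were 0.64, -0.73, 0.29 and 1.24, with a mean of 0.36 ± 0.82 (SD, n = 4), and its 95% interval ran from 0.675-fold to 2.44-fold, the widest of the 13. A_72_P734731 had signals of 304, 116, 91.9 and 239 with OXA and of 191, 210.1, 74.5 and 119.6 without, and log2 ratios of 0.67, -0.85, 0.30 and 1.00. Both probes had their OXA value above the non-treated value on 3 arrays and well below it on array 2. A_72_P070231 had a smaller range, with 0.13, -0.21, -0.28 and 0.54, from signals of 1801, 515, 501 and 1453 with OXA and of 1651, 598, 609 and 998 without. Its mean was 0.04 ± 0.38 (SD, n = 4), the lowest of the 13. SLA-6 had signals of 724, 403, 537 and 1081 with OXA and of 479.8, 647, 526 and 598 without. Its log2 ratios were 0.59, -0.68, 0.03 and 0.85, with a mean of 0.20 ± 0.68 (SD, n = 4). Signs of +, -, + and + on arrays 1 to 4 were found for 5 of the 13 class I probes: A_72_P541846 and A_72_P734731 of SLA-8, the SLA-6 probe, A_72_P517623 of SLA-3 and A_72_P441589 of B2M. The same signs were found for 17.7% of all tested probes. They too were not fixed beforehand, and the shares are a description. After loess normalization 4 of the 13 had them, against 15.4% of all tested probes: SLA-6 left this set with -0.083 on array 3, A_72_P441589 left it, and A_72_P709927 of B2M entered it. Without array 2 the estimates were 0.85 and 0.74 for those 2 SLA-8 probes and 0.58 for SLA-6, and without array 4 they were -0.13, -0.18 and -0.19. In both fits the array left with OXA in Cy3 weighed as much as arrays 1 and 3 together.

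SLA-7 and the fourth SLA-8 probe were not tested. The SLA-7 probe was well above background on 1 of 4 arrays in each channel, with signals of 23.6, 19.0, 29.6 and 30.0 with OXA and of 9.90, 13.8, 16.8 and 33.9 without. The SLA-8 probe A_72_P517672 was well above background in both channels on arrays 1 and 4 and in neither on arrays 2 and 3. On arrays 1 and 4, where it was measured, its signals were 177 and 128 with OXA and 101 and 75.0 without, with log2 ratios of 0.81 and 0.77. Neither probe has a mean over the 4 arrays or a test.

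Class I probes also differed between arrays within each condition. The 8 channels were put on 1 scale by quantile normalization, and the log2 level of each probe was compared with itself across arrays. SLA-8 A_72_P070231 had 10.69, 9.38, 9.30 and 9.72 without OXA and 10.82, 9.15, 9.02 and 10.28 with OXA. It was high on array 1 in both channels, and the highest and lowest arrays differed 2.61-fold without OXA and 3.50-fold with OXA. This SD over arrays was at the 78.9th and 85.1th percentile of all tested probes. SLA-8 A_72_P541846 had 8.03, 8.81, 7.00 and 6.84 without OXA, a 3.89-fold range at the 92.8th percentile. It was highest on array 2, where A_72_P070231 was low, so the 2 probes of SLA-8 ordered the arrays differently. SLA-3 A_72_P682906 had 15.15, 15.76, 15.36 and 15.47 without OXA, a 1.52-fold range at the 20.3th percentile. The median probe had a range of 1.88-fold without OXA and of 2.20-fold with OXA. B2M A_72_P441589 had 15.84, 16.96, 16.46 and 16.41 without OXA, a 2.16-fold range, and 16.93, 16.46, 16.57 and 17.08 with OXA, a 1.54-fold range. Which condition varied more between arrays depended on the scaling: with median scaling, the same B2M probe had a 1.88-fold range without OXA and a 1.97-fold range with OXA.

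The dye itself was not called for any class I probe. The dye term of limma had an unadjusted p under 0.05 for 0 of the 13, against 2.45% of all tested probes, and its lowest p among them was 0.179. The widest gap between dye orientations among the 13 was that of A_72_P683231 of SLA-3, whose mean was -0.29 over arrays 1 and 3 and 0.56 over arrays 2 and 4. The labelling protocol has OXA-treated RNA in Cy5 throughout. Read that way, 8 of the 13 probes turn negative, among them 6 of 7 SLA-3 probes, and 0 of 19500 probes are called.

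**Figure D3:**
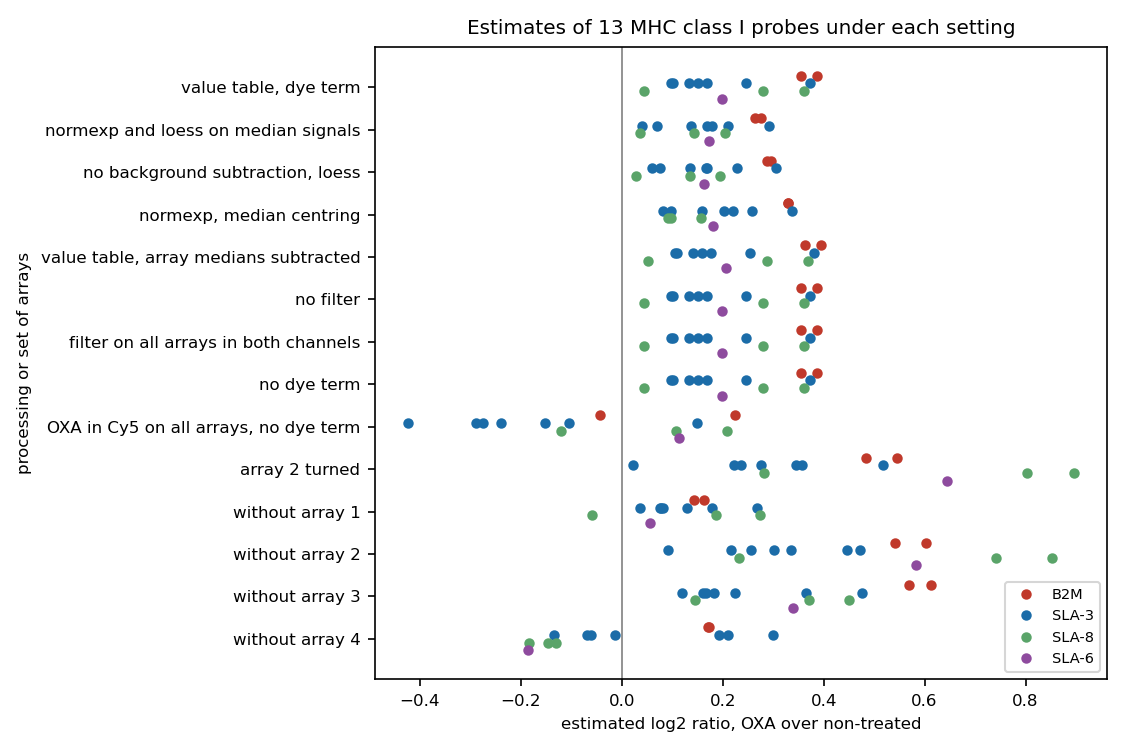
Estimated log2 ratio of the 13 class I probes (points, coloured by gene) under each processing setting and set of arrays. All points lie above 0 for the 8 settings that change only background, normalization, filter or the dye term, and points lie on both sides of 0 when array 1 or array 4 is left out and when Cy5 is read as OXA throughout. The fits with other filters or without a dye term repeat the points of the main fit, since those choices cannot change an estimate.

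The genes that supply and load class I peptides had mostly positive ratios on arrays 1 and 4. Of 13 genes in that list, 9 had tested probes, 0 of them were called in limma and 0 had an unadjusted p under 0.05. Their median log2 ratios were 0.30, -0.28, -0.26 and 0.42 on arrays 1 to 4, beside medians of 0.27, -0.32, 0.04 and 0.33 over the 1985 named genes tested. TAP1, a subunit of the peptide transporter, had 0.30, -0.70, -0.24 and 0.65, with a mean of 0.00 ± 0.59 (SD, n = 4). TAP2, its partner, had 0.46, -0.55, -0.09 and 0.57. The immunoproteasome subunits PSMB8, PSMB9 and PSMB10 had means of -0.19, 0.15 and -0.06, and the proteasome activators PSME1 and PSME2 had -0.04 and 0.16. These 7 genes were all positive on arrays 1 and 4 and negative on arrays 2 and 3, as were 20.2% of the named genes tested. Those signs were not fixed beforehand either. CALR, the chaperone calreticulin, had the highest mean of the list, 0.75 ± 0.70 (SD, n = 4), with 1.09, -0.19, 0.64 and 1.45. CANX, the chaperone calnexin, had -0.00, 0.33, -0.26 and 0.25, and resembled the SLA-3 probes in its sign on arrays 2 and 3.

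Regulators of class I transcription had mixed signs. Of 18 genes in that list, 12 were tested, 0 were called and 0 had an unadjusted p under 0.05, and 6 had a positive mean. NLRC5, the transactivator of class I genes, had 1.14, -0.39, 0.36 and 1.44, with a mean of 0.64 ± 0.82 (SD, n = 4). It was positive on arrays 1, 3 and 4, the signs of SLA-6 and of 2 SLA-8 probes. IRF1, a transcription factor induced by interferon, had -0.12, -0.20, -0.61 and 0.20. The interferon receptor subunit IFNGR2 was the only one of the 12 with a positive value on all 4 arrays, 0.60, 0.00, 0.02 and 0.40, while 4.69% of the named genes tested were so. IFNGR1 had -0.18, 0.54, -0.02 and -0.96. The other 8 regulators tested had means between -0.31 for JAK2 and 0.17 for IFNAR1. Of the class I-like genes, FCGRT, the neonatal Fc receptor that also pairs with B2M, had 0.32, -0.28, 0.24 and 0.75, with a mean of 0.26 ± 0.42 (SD, n = 4). PROCR had 1.03, -0.25, -0.58 and 0.66, and CD1D and CD1E were not well above background.

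**Figure D4:**
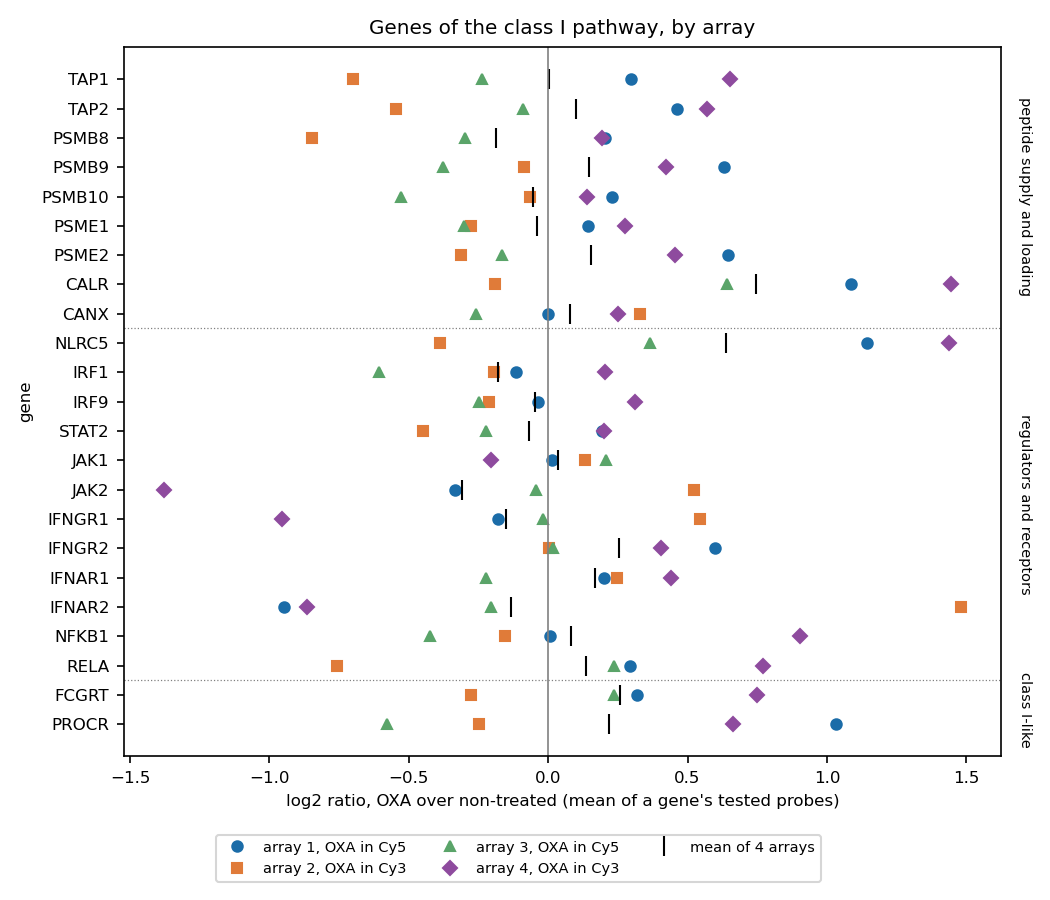
Log2 ratio of OXA over non-treated for the tested genes that supply class I peptides, regulate class I transcription or encode class I-like proteins, with 1 symbol per array and a bar at the mean of 4 arrays. The 2 TAP genes and the 5 proteasome genes lie right of 0 on arrays 1 and 4 and left of it on arrays 2 and 3.

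Interferon genes themselves were not detected by the rule for testing, while interferon-induced genes were. The probes for IFNG, IFN-DELTA-1, IFNA1 and IFNB1 were not well above background on 3 arrays in either channel. All 18 interferon-induced genes that the array names were tested, 0 were called, 1 had a probe with an unadjusted p under 0.05, and 13 of 18 had a positive mean, beside 62.2% of the named genes tested. Means of the 18 genes ran from -0.32 to 0.73. Only MX1 and OAS2, 2 of the 18, were positive on all 4 arrays, beside 4.69% of the named genes tested. OAS2 is named because of these signs. MX1, an antiviral GTPase, had 0.66, 0.14, 0.01 and 0.32, with a mean of 0.28 ± 0.28 (SD, n = 4). OAS2, a sensor of double-stranded RNA, had 0.57, 0.26, 0.04 and 0.54, with a mean of 0.35 ± 0.25. One of its 5 probes gave the unadjusted p under 0.05, and its adjusted p was 0.998 in limma. ISG15, a ubiquitin-like modifier, had 1.55, -0.45, 0.15 and 1.22.

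Cell type markers differed between the channels of an array as well. The 7 smooth muscle markers had median log2 ratios of -0.35, -0.40, 0.19 and -0.13 on arrays 1 to 4, 0 of 7 had a positive mean, and their summed processed signal ran from 176221 to 421290 with OXA and from 179225 to 493367 without. The 4 fibroblast markers had medians of -0.12, -0.58, 0.22 and -0.38, with 1 of 4 positive in the mean, and the 5 endothelial markers had -0.42, -0.54, 0.16 and 0.71, with 3 of 5. The 5 tested of 6 named markers of uterine epithelium had median log2 ratios of -1.15, 2.06, -0.92 and 1.97 on arrays 1 to 4. The summed processed signal of all 6, with PAEP, which was not well above background, ran from 1342 to 5887 with OXA and from 1287 to 3153 without. The 9 tested macrophage markers had medians of 0.60, -0.74, 1.93 and 0.71, and summed signals of 1001 to 7649 with OXA and of 1033 to 4727 without. Among T and natural killer cell markers, 10 of 11, CD3D, CD3E, CD8A and NCR1 among them, were not well above background, and the summed signal ran from 347 to 424 with OXA and from 266 to 448 without. The 3 named B cell markers were not well above background. The epithelial median was positive on arrays 2 and 4, where 6 and 7 of the 7 SLA-3 probes were positive, and negative on arrays 1 and 3, where 4 and 1 were. By the labels, arrays 2 and 4 are also those with OXA in Cy3, so the epithelial signs follow the dye orientation. Tissue content, dye and labelling cannot be told apart in them. The macrophage median was negative on array 2, as were the tested SLA-8 and SLA-6 probes, and highest on array 3, where SLA-6 had 0.03 and the SLA-8 probes had -0.28 to 0.30. The part of any of these lists in the class I ratios was not tested. In bulk tissue, fewer cells of a type and less RNA per cell cannot be told apart.

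Genes with the most similar ratios were taken as those with the smallest root mean square difference over the 4 arrays, among named genes tested. On array 2, 6 of the 11 heavy chain probes were positive and 5 negative, so their median describes neither set there. Closest to the median of the 11 heavy chain probes (0.29, 0.02, -0.13 and 0.65) were PCBP2, an RNA-binding protein, at 0.04, then COX6A1 at 0.07, ARSE at 0.07, CREB3 at 0.07, PRDX2 at 0.08 and SPP1, osteopontin, which is also in the epithelial marker list, at 0.08. Closest to the mean of the B2M probes (0.90, -0.12, 0.03 and 0.68) were DOK2 at 0.07, NOP2 at 0.07, PLEKHD1 at 0.09, INIP at 0.12, TRIM39 at 0.12 and LETM1 at 0.12. No gene of the peptide supply list was among these 12. That list makes up only 9 of the 1985 named genes tested, so its absence says nothing about likeness. All genes share the same 4 hybridisations, and this likeness is a description.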

How the data were processed

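Each of 4 samples was a 2-colour Agilent array. All came from 1 slide and 1 scan, which leaves no batch term to fit. The authors' scanner files hold spot and background intensity, processed signal intensity and a log10 ratio of Cy5 over Cy3, and per the file headers the software was Agilent Feature Extraction, version 10.7.3.1. In the value table the authors deposited, entries are log2 ratios whose direction and scale are not given in the sources used here. Set against the scanner's ratios, its slope was 1 for arrays 1 and 3 but -1 for arrays 2 and 4, and 99.87% to 99.99% of tested probes lay within 0.001, so it runs as OXA over non-treated. Column medians were 0.10, 0.10, -0.19 and 0.07, with no further centring found. Ratios came from this table; levels and background flags came from the scanner files. Spots of a probe were averaged. RefSeq transcripts named 6700 probes of 3029 genes; 36903 probes stayed unnamed.

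The two-sided limma fit (3.58.1, R 4.3.3) had an OXA term and a dye term, with 2 residual and 4.10 prior degrees of freedom, Benjamini-Hochberg adjustment over 19500 probes and a threshold of 0.05. It was tested on simulated data. Members, gene lists and the rule for named genes were chosen with earlier results of these data known: every member and every gene of the peptide supply, regulator and class I-like lists may be named, up to 4 genes of the other lists with 1 sign on all 4 arrays, ISG15, MX1 and SLA-DRA always, and the 6 genes nearest each profile. Not every gene that may be named is named, and 1 gene fixed for the regulator list is not used here. Alternatives were other background corrections and normalizations (normexp with offset 50 and loess among them), other filters, no dye term, other orientations and leaving out each array. The number of arrays limits the precision.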

Additional observations from a re-analysis of the deposited data

Results flagged for a closer look

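Among 53 groups of values, each over the 4 arrays, Dixon's test found a single array far from the rest in 1, and about 1 in 20 is found by chance. The median of the general leukocyte genes ITGB2 and TYROBP was -0.79 on array 2, against 0.49 to 0.74 on the other arrays. None of the 39 groups made of class I ratios and levels was found this way.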

How the results depend on the processing

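Under 7 other choices of background correction, normalization, filter or dye term, 0 probes were called and all 13 class I estimates stayed positive, from 0.03 to 0.40. The other filters and the fit without a dye term cannot change an estimate. Subtracting array medians moved all estimates by the same amount. Only the other background corrections and normalizations could move the probes apart. With Cy5 read as OXA on every array, estimates reversed to -0.043 for B2M A_72_P709927, to -0.24, -0.29, -0.15, -0.27, -0.11 and -0.42 for SLA-3 A_72_P440386, A_72_P515992, A_72_P625308, A_72_P649741, A_72_P682906 and A_72_P683231, and to -0.12 for SLA-8 A_72_P070231. This is set by which arrays are turned. Leaving out each array in turn gave 1 to 1093 called probes (1, 1093, 5 and 6 without arrays 1 to 4), and 0 class I probes among them. Over these 4 fits the estimates ran from -0.061 to 0.26 for A_72_P440386, -0.13 to 0.47 for A_72_P517623, -0.013 to 0.22 for A_72_P649741, -0.0697 to 0.33 for A_72_P683231, -0.19 to 0.58 for SLA-6 A_72_P237292, -0.15 to 0.23 for A_72_P070231, -0.13 to 0.85 for A_72_P541846 and -0.18 to 0.74 for A_72_P734731. The other 5 probes stayed positive, from 0.077 to 0.61. The negative values came without array 4, and for A_72_P070231 also without array 1 (-0.059). These fits keep the dye term, so the array left alone in its dye orientation weighs as much as the other arrays together. Without array 4 that is array 2, and without array 1 it is the remaining array with OXA in Cy5. For A_72_P070231 the latter had -0.28, beside a mean of 0.16 over arrays 2 and 4. The negative estimates therefore also depend on this weight, and any further cause was not tested. With array 2 turned the 13 stayed positive, from 0.02 to 0.90. Its dye sign was turned as well, so array 4 was alone in its dye orientation in that fit. Array 4 then weighed as much as the other arrays together, and all 13 probes were positive on it. The positive estimates with array 2 turned therefore also depend on the weight of array 4. A fit of these turned ratios with equal weights was not run. The slide as a block was not run, since there is 1 slide. The fit on ratios is paired within arrays, and no further block was fitted. Signals of SLA-7 and SLA-8 A_72_P517672 near background limit what can be measured.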

Other observations

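SLA-5, a class I gene outside the set above that was picked after its values were seen, had 2 probes well above background on all arrays. A_72_P414498 had log2 ratios of -0.69, -0.51, 0.05 and 1.15 on arrays 1 to 4, and A_72_P441848 had -0.15, 0.19, -0.35 and 0.37. Their means were 0.00 ± 0.83 and 0.01 ± 0.32 (SD, n = 4), and both were highest on array 4, as the heavy chain median was.

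MHC class II genes, which present extracellular peptides on immune cells, had medians of 0.38, -0.42, -0.01 and 0.55 over 8 tested genes, beside 0.27, -0.32, 0.04 and 0.33 over the named genes tested. A positive mean was found for 7 of the 8 and for 62.2% of the named genes tested. In limma 0 of them were called and 0 had an unadjusted p under 0.05. SLA-DRA, the alpha chain of the DR molecule, averaged 0.35, -0.19, 0.30 and 0.52 over its 7 probes, with a mean of 0.25 ± 0.30 (SD, n = 4). Class I receptors of lymphocytes were mostly not measured, since 5 of 6 such genes, CD8A and KLRK1 among them, were not well above background.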
